A study of Mus musculus with 96 samples.

Results

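The miRNAs miR-140 and miR-455 were followed through the 4 major cell types of the mouse heart after myocardial infarction. Both arms of each hairpin were taken by name (mmu-miR-140-5p, mmu-miR-140-3p, mmu-miR-455-5p and mmu-miR-455-3p, written here with no species prefix), which gave 4 of the 1978 mature miRNAs counted in every library. The 2 hairpins, mir-140 and mir-455, were read from a separate table of 1234 hairpins. Adult male C57Bl/6J mice had the left anterior descending artery permanently ligated, and hearts were taken 1, 3, 7, 14 and 28 days later (D1 to D28). D0 mice had no infarction and served as control, so no group had a sham operation. Small RNA was sequenced from cardiomyocytes (CMs, collected by centrifugation), hematopoietic cells (HCs, bound by anti-CD45 beads) and endothelial cells (ECs, bound by anti-CD144 beads). It was also sequenced from fibroblasts (FBs, the cells left unbound by the beads that then adhered on plating). Each of the 24 groups of cell type and day had 4 libraries. Each library came from RNA pooled from 3 mice, or fewer where a sample was missing, so p-values rest on the spread between these libraries. The study's text calls the libraries of a group both pools of mice and technical replicates, and in the latter case that spread is technical only.

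miRNAs are short RNAs cut from both arms of a hairpin and loaded into Argonaute proteins, where bases 2 to 8, the seed, pair with target transcripts. miR-140 is best known from cartilage, where its hairpin is made with the transcript of Wwp2, an E3 ubiquitin ligase gene. miR-455 lies in Col27a1, a fibrillar collagen gene, and is also known from chondrocytes. Both host genes are linked to the chondrogenic transcription factor Sox9.

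The mature sequences show what was counted and which other miRNAs carry the same seed. RefSeq (GRCm38.p6) held 3 of the 4 mature sequences, printed 5′ to 3′ with the seed in capitals.
miR-140-3p: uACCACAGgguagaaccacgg
miR-455-5p: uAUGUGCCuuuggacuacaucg
miR-455-3p: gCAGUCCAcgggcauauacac
They lie on the plus strand at chr8:107551288-107551308, chr4:63256867-63256888 and chr4:63256904-63256924, respectively. The hairpin of miR-140 (chr8:107551244-107551313, plus strand) is shown because its 3p arm, in capitals at bases 45 to 65, is one of the members.
Mir140: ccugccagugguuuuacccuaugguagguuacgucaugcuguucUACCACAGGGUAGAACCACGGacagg
In the GENCODE annotation of GRCm38, Mir140 lies within Wwp2, in an intron of 3 protein-coding transcripts and in an exon of 1 retained-intron transcript. Mir455 (chr4:63256851-63256932, plus strand) lies within Col27a1, in an intron of 1 protein-coding transcript. The seeds of miR-140-3p and miR-455-5p were each shared with 1 other listed miRNA, shown to mark the shared capitals, and the seed of miR-455-3p was shared with none.
miR-497b: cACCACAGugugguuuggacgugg
miR-5129-3p: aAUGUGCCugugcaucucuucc
miR-497b (chr11:70234763-70234786) had a median of 0.0838 to 1.15 CPM in the 4 cell types (reads of the miRNA over all mature counts of the library, times 1000000). For miR-5129-3p (chr2:45023110-45023131) the medians ran from 0.118 CPM in CMs to 7.24 CPM in HCs. In each cell type both were scarcer by median than the member that shares their seed, whose medians were at least 82.6 CPM for miR-140-3p and 6.47 CPM for miR-455-5p.

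Libraries held 3327351 to 24279105 mature counts in CMs, 525651 to 29037628 in ECs, 2217588 to 65588543 in FBs and 18286 to 29504666 in HCs. The library with 18286 counts, HC D0 replicate 3, held only 4 reads of miR-140-5p, 30 of miR-140-3p and 1 of each miR-455 arm. Input and PCR cycles were set per cell type (500 ng and 14 cycles for CMs, 50 ng and 16 for ECs, 150 ng and 15 for FBs and HCs). The groups EC D28, FB D0 and HC D0 each lost a replicate as an outlier in the study, which one is not given in the sources used here, and all libraries were kept. Cell type cannot be told apart from these settings, except between FBs and HCs, which shared them. Libraries were also prepared in a batch per cell type. Library batch therefore cannot be told apart from cell type in any comparison, that of FBs and HCs included. The FB markers miR-199a-5p, miR-199a-3p and miR-214-3p were highest by median in FBs, and the CM and EC markers were highest in their own cells. The summed CM markers still had medians of 75254 CPM in ECs and 51081 CPM in HCs. These compare with 526119 CPM in CMs and 2341 CPM in FBs. Of the 4 HC markers, miR-142a-3p, miR-142a-5p and miR-223-3p were highest in HCs, whereas miR-150-5p had medians of 2353.6 CPM in ECs and 2290.3 CPM in HCs.

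miR-455 was an FB miRNA on both arms, whereas miR-140 was not. In FBs, miR-455-5p had a median of 177 CPM (97.9 to 270.2 over 24 libraries), against 35.8 CPM in HCs (15.3 to 74.8), 13.8 CPM in ECs (1.64 to 41.5) and 6.47 CPM in CMs (0.283 to 13.4). All 24 FB libraries lay above every library of the other cell types. In plain CPM its mean over the 6 FB groups was 31.5-fold that of CMs, 10.6-fold that of ECs and 4.84-fold that of HCs. The fit below scales libraries by TMM factors, so its differences are not the log2 of these folds. Fitted with edgeR over all 96 libraries, the log2 difference between FBs and the other cell types was 3.78 ± 0.12 (SE) for CMs, 3.37 ± 0.12 for ECs and 3.01 ± 0.12 for HCs, with adjusted p of 2.7e-47, 2.1e-43 and 2.4e-41. FBs were higher for 40.9%, 39.9% and 38.1% of the 712 miRNAs tested.

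miR-455-3p was lower than its partner arm and had the same order at the top. Its median was 50.5 CPM in FBs (29.8 to 77.6), 7.33 CPM in ECs (0.781 to 22.8), 7.16 CPM in HCs (2.54 to 54.7) and 0.965 CPM in CMs (0 to 3.68). FBs did not overlap any other cell type except at D0, where the 1 read in HC D0 replicate 3 came to 54.7 CPM. The log2 differences were 2.73 ± 0.15 against ECs and 3.39 ± 0.14 against HCs (edgeR, adjusted p 2.4e-31 and 5.7e-39). Against CMs, the mean of FBs in plain CPM was 42.8-fold that of CMs, with 4 CM libraries at 0 reads.

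miR-140 was most abundant in HCs. The median of miR-140-3p was 1658 CPM in HCs (1155 to 2352), 691 CPM in FBs (417 to 2041), 623 CPM in ECs (509 to 1099) and 82.6 CPM in CMs (42.4 to 115). miR-140-5p had medians of 873 CPM in HCs (219 to 1161), 432 CPM in FBs (129 to 1465), 182 CPM in ECs (40.9 to 291) and 133 CPM in CMs (8.49 to 292). Averaged over days, FBs were 0.35 ± 0.10 log2 units below HCs for miR-140-3p (edgeR, adjusted p = 0.00061; 47.6% of miRNAs were lower in FBs). For miR-140-5p the FB value minus the HC value was -0.16 ± 0.12 (adjusted p = 0.23), a difference that was called with scaling by library size alone, with no filter on low counts and by DESeq2. Against ECs, FBs were 1.27 ± 0.13 log2 units higher in miR-140-5p, and 0.14 ± 0.10 apart in miR-140-3p (adjusted p = 0.20). That last difference was called in 45 of the 96 fits that each left out 1 library, with scaling by library size alone and by DESeq2.

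By the rule for enrichment (a log2 difference of at least 1 and adjusted p under 0.05 against each of the 3 other cell types), 2 of the 4 members, both miR-455 arms, were enriched in FBs. Of all 712 miRNAs tested, 15.9% were. The rule covers enrichment in the FB isolates only. Of 12 other miRNAs known from mesenchymal cells, the 6 arms of miR-199a, miR-199b and miR-214 were enriched in FBs, and the 6 arms of miR-143, miR-145a and miR-152 were not. This list includes the 3 FB markers, and its miR-199a-3p and miR-199b-3p have the same counts. In bulk samples such as these, fewer cells of a type and less RNA per cell cannot be told apart.

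**Figure D1:**
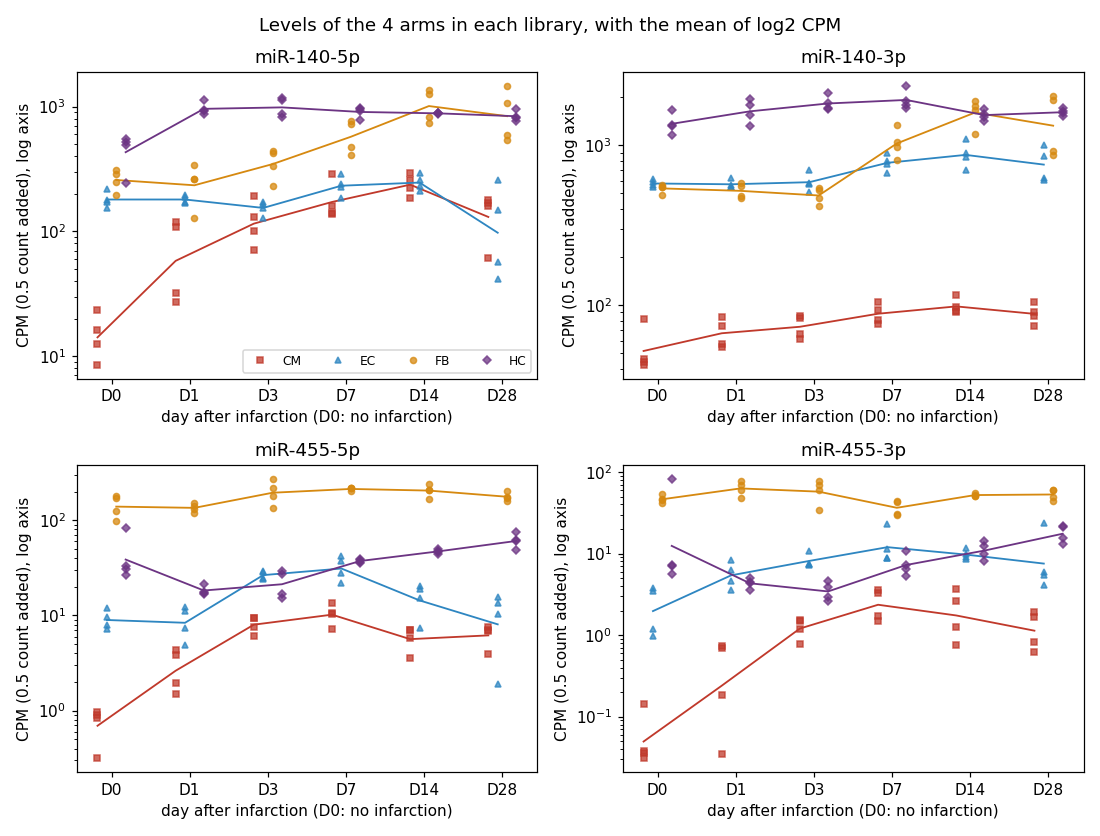
Levels of the 4 miRNAs in CPM (log axis, 0.5 count added) by day in each cell type; points are libraries and lines join group means. Both miR-455 arms sit highest in FBs, whereas HCs hold the highest miR-140-3p at D0 (mean 1366 CPM against 538 CPM in FBs).

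The order of the cell types shifted for miR-140 with time. At D0, the mean of miR-140-3p was 1366 ± 202 CPM (SD, n = 4) in HCs, 577 ± 30.7 in ECs, 538 ± 33.2 in FBs and 53.8 ± 19.1 in CMs; ECs and FBs overlapped and HCs stood apart. At D14, FBs (1626 ± 314) and HCs (1546 ± 116) overlapped, and both stood above ECs (881 ± 166). At D28 the HC mean was again the higher, 1609.7 ± 84.1 against 1432 ± 629.6 CPM in FBs, with the FB libraries on both sides of the HC range. For miR-140-5p the FB mean was above the HC mean at D14 (1045 ± 316 against 882 ± 12.5 CPM) and D28 (912 ± 437 against 839 ± 86.9 CPM), with overlap on both days. With the D0 groups alone, the FB difference was not called for miR-140-5p against ECs (0.26, adjusted p = 0.49) or for miR-140-3p against CMs (0.39, adjusted p = 0.15). For miR-455-5p, FBs ranked first on all 6 days and did not overlap the next cell type on any of them.

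The question within each cell type was whether the members changed after infarction. In FBs both arms of miR-140 rose from D7 onward. miR-140-3p was 490.2, 544, 568 and 548 CPM in replicates 1 to 4 at D0. It was 1049, 978, 804 and 1342 CPM at D7. At D14 it was 1664, 1178, 1899 and 1763 CPM, and all 12 libraries of D7, D14 and D28 lay above every D0 library. At D28 the replicates split, with 2041 and 1909 CPM in replicates 1 and 4 and 863 and 916 CPM in replicates 2 and 3. The log2 fold change against D0 was 0.74 ± 0.23 (SE) at D7, 1.56 ± 0.24 at D14 and 1.54 ± 0.23 at D28 (edgeR, adjusted p 0.011, 2.5e-05 and 0.0001).

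miR-140-5p followed the same course. It was 251, 196, 291 and 309 CPM at D0. At D7 the values were 765, 475, 407 and 723 CPM. At D14 they were 820.1, 732, 1264 and 1365 CPM, again with no overlap with D0. At D28 replicates 1 and 4 (1465 and 1058 CPM) were once more above replicates 2 and 3 (539 and 587 CPM). The log2 fold changes were 0.97 ± 0.32, 1.96 ± 0.33 and 1.94 ± 0.33 at D7, D14 and D28 (edgeR, adjusted p 0.016, 0.00012 and 0.00034). At D1 and D3 neither arm was called: the values were -0.25 ± 0.32 and 0.11 ± 0.32 for miR-140-5p and -0.24 ± 0.23 and -0.47 ± 0.23 for miR-140-3p.

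Of all 563 miRNAs tested in FBs, the share that was higher than at D0 was 24.5%, 14.4% and 4.8% on D7, D14 and D28; in either direction it was 7.99% at D1 and 43% at D3. The 2 of 4 members that were higher at D28 thus stood in a group where few miRNAs were called. The D7 calls were the least firm. miR-140-5p fell short of the threshold without FB D7 replicate 1 (0.80, adjusted p = 0.063) or replicate 4 (0.85, adjusted p = 0.055), and miR-140-3p without replicate 4 (0.58, adjusted p = 0.059).

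The summed HC markers were not higher in FBs on D14 and D28. Their level was 222 to 236 CPM in FBs at D0, 90.8 to 186 CPM at D14 and 72.4 to 171 CPM at D28, against 6819 to 25731 CPM in HCs, and all 4 markers had reads in each FB library. The 3 markers that were highest in HCs, summed without miR-150-5p, came to 36.1 to 121 CPM in FBs at D0, 13.0 to 43.4 CPM at D14 and 15.9 to 59.6 CPM at D28. The summed FB markers were 40646 to 63149 CPM at D0 and 52804 to 68165 CPM at D14. The miRNAs miR-143-3p and miR-145a-5p, known from mural cells, summed to 24568 to 27493 CPM at D0, 28109 to 35780 CPM at D7 and 21787 to 25860 CPM at D14. The part of all these markers in the FB values of D7, D14 and D28 was not tested.

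**Figure D2:**
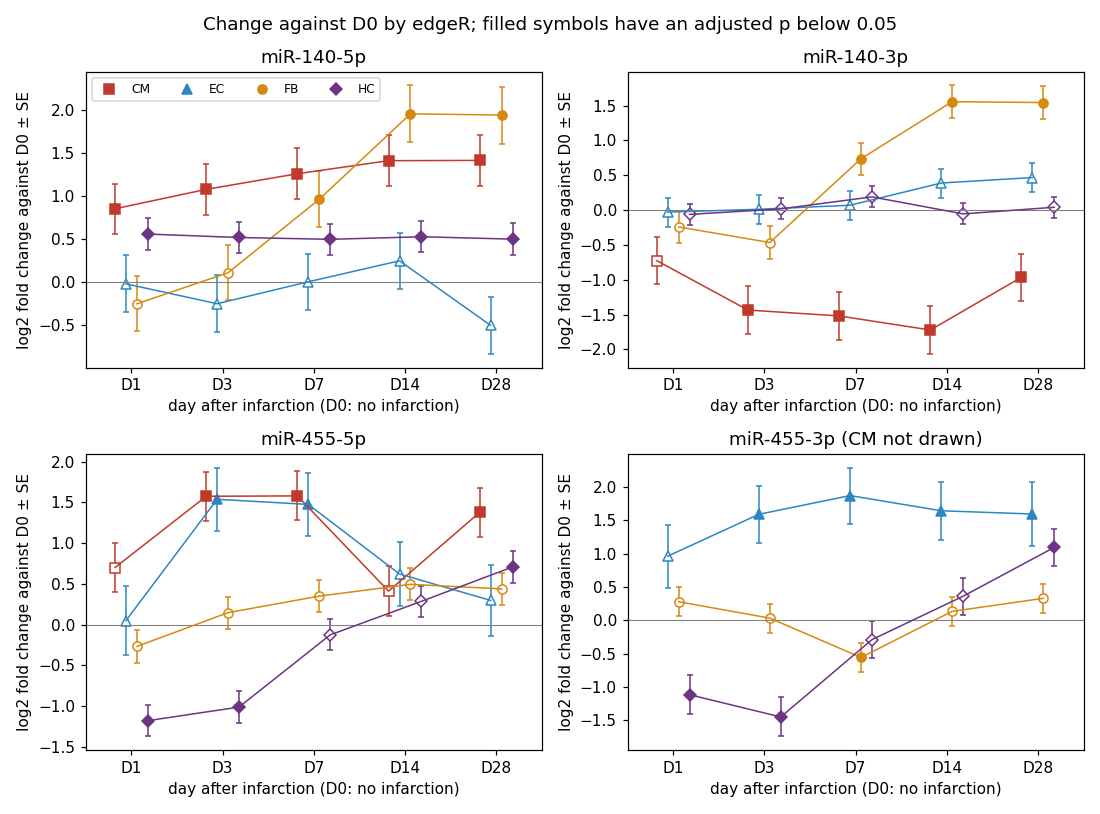
Log2 fold change against D0 of each miRNA by day and cell type, from the edgeR fit; bars are standard errors and CMs are left out for miR-455-3p, which had 1 read over the 4 D0 libraries. FB miR-140-3p rose to 1.56 at D14, while HC miR-455-5p went from -1.18 at D1 to 0.71 at D28.

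The hairpin tables gave a second readout, since reads were compared with the hairpins only after matching no mature sequence. Tests of hairpins scaled each library by its hairpin counts, with TMM factors or by library size alone. Hairpin CPM is instead relative to mature counts, so the tested changes are not the log2 of CPM folds. In FBs mir-140 hairpin reads were 1437, 1281, 2184 and 2239 CPM at D0, again relative to the mature counts of the library. At D14 they were 7919.9, 5755, 9824 and 9943, and every library of D7, D14 and D28 lay above the D0 range. The changes were 1.10 ± 0.26, 2.04 ± 0.27 and 2.08 ± 0.27 on the log2 scale at D7, D14 and D28 (edgeR, adjusted p 0.0017, 2.9e-06 and 8.9e-06), beside 29.2%, 11.4% and 7.24% of 456 hairpins higher on those days. At D28 the split between replicates 1 and 4 (8780.2 and 9361) and replicates 2 and 3 (3386 and 4507) was present here too.

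These hairpin reads were the larger part of the signal at both loci. The median share of a locus's reads that matched the hairpin and no mature arm was 71.1 to 81.2% for mir-140 and 79.6 to 89.8% for mir-455 in the 4 cell types. Pooled over the FB libraries the shares were 74.2% for mir-140 and 85.3% for mir-455, against a median of 25.2% over 260 hairpins with both arms listed and at least 1000 counts. A read could be counted on more than 1 hairpin (1.17 to 2.40 alignments per matched read), so these shares describe the tables and not molecules.

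**Figure D3:**
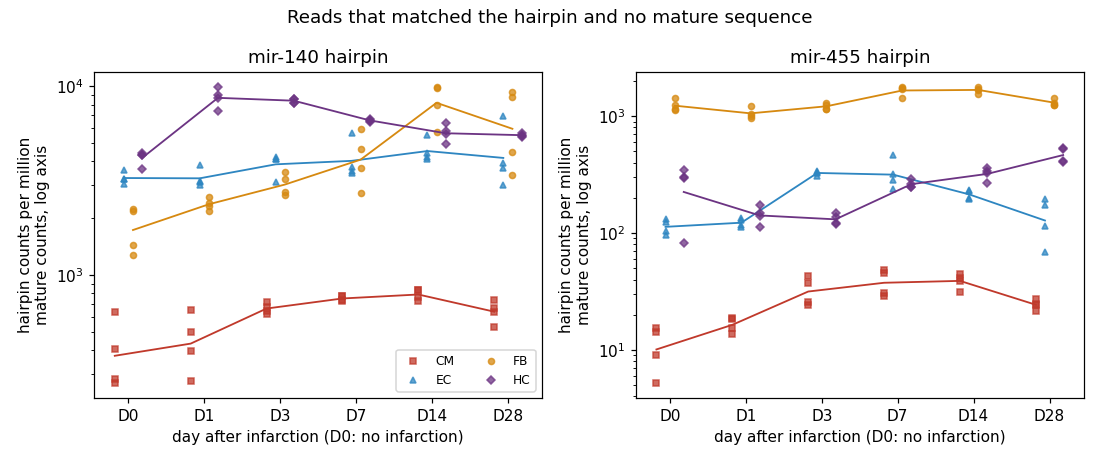
Reads that matched the hairpin and no mature sequence, in CPM relative to mature counts (log axis), by day and cell type; points are libraries and lines join group means. FB mir-140 reads ran from 1281 to 2239 at D0 and from 5755 to 9943 at D14, and mir-455 reads were highest in FBs on every day.

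miR-455 moved little in FBs. miR-455-5p was 126, 97.9, 169 and 177 CPM at D0, 219, 215, 200.1 and 217 CPM at D7 and 167, 209, 242 and 207 CPM at D14. The 4 D7 libraries lay above the D0 range, yet edgeR called none of the 5 days; 2 of them, D14 and D28, had an unadjusted p under 0.05, and DESeq2 called 1, D14. The log2 fold changes ran from -0.27 ± 0.20 at D1 to 0.49 ± 0.20 at D14. miR-455-3p was 46.3, 41.5, 44.8 and 53.4 CPM at D0 and 29.8, 44.6, 30.6 and 43.1 CPM at D7, with overlap. Its change of -0.56 ± 0.22 at D7 (edgeR, adjusted p = 0.041) was called in only 3 of the 8 fits that left out 1 library of those days, beside 21.1% of miRNAs that were lower, and was -0.34 with scaling by library size alone. The mir-455 hairpin was lower at D3 (-0.48 ± 0.15, adjusted p = 0.0095; 16.2% of hairpins were lower), a call that did not hold without FB D0 replicate 1 (-0.39, adjusted p = 0.051). Over the 6 days together, all 4 members varied in FBs (adjusted p 8e-07 for miR-140-5p, 1.5e-08 for miR-140-3p, 0.011 for miR-455-5p and 0.016 for miR-455-3p), as did 68.2% of the miRNAs tested.

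Some of the 12 mesenchymal miRNAs were called in FBs on every day after D0. At D1 1 was lower and at D3 2 were lower, with 0 higher on both days. Of all miRNAs, 7.99% and 43% were called in either direction on those days. At D7, 2 were higher and 5 lower than at D0, beside 24.5% and 21.1% of all miRNAs. Their median was -0.01 beside -0.07 over all miRNAs. At D14, 2 were higher (14.4% of all miRNAs were) and 1 lower. At D28 only miR-214-5p was called, as higher (edgeR, 0.62 ± 0.16, adjusted p = 0.022), beside 4.8% of all miRNAs. Both miR-140 arms had a larger fold change than any member of that list on D14 and D28, where the highest in the list was miR-214-5p at 0.57 ± 0.16 and 0.62 ± 0.16.

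In ECs, miR-455 rose and miR-140 was not called. miR-455-5p was 11.7, 7.04, 9.63 and 7.6 CPM at D0, 28.5, 29.3, 24.1 and 24 CPM at D3, and 37.5, 41.5, 27.5 and 21.5 CPM at D7. It was 18.7, 15, 20.2 and 6.96 CPM at D14 and 9.51, 1.64, 12.6 and 15.6 CPM at D28, where the range again covered that of D0. The log2 fold change was 1.54 ± 0.39 at D3 and 1.47 ± 0.39 at D7 (edgeR, adjusted p 0.0058 and 0.0047), beside 17.6% and 22.6% of 421 miRNAs called in either direction. At D14 and D28 it was 0.62 ± 0.39 and 0.30 ± 0.43.

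miR-455-3p was 0.781, 3.35, 3.76 and 0.95 CPM in ECs at D0, where these values rest on 2, 20, 77 and 2 reads. It was 10.7, 7.3, 7.06 and 7.36 CPM at D3, 8.87, 22.8, 8.72 and 11.3 CPM at D7 and 8.89, 8.42, 11.5 and 9.57 CPM at D14. Every library of D3, D7, D14 and D28 was above the highest D0 library. The log2 fold changes were 1.59 ± 0.43, 1.87 ± 0.42, 1.64 ± 0.43 and 1.59 ± 0.48 (edgeR, adjusted p 0.009, 0.0011, 0.01 and 0.0073). Called in either direction were 14.5% of miRNAs at D14 and 47% at D28. The D28 values of replicates 1 to 4 rest on 12, 7, 3 and 23 reads. Without EC D28 replicate 1 (22.8 CPM, against 3.83 to 5.89 in the others) the D28 value was 0.91 (adjusted p = 0.10). At D1 none of the 4 members was called, nor was any of the 421 miRNAs.

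The mir-455 hairpin reads in ECs were 96.4 to 131 CPM at D0, 307 to 337 at D3 and 239 to 462 at D7. They changed by 1.46 ± 0.24 and 1.27 ± 0.24 log2 units at D3 and D7 (edgeR, adjusted p 3.1e-05 and 0.00012; 16.5% and 14.6% of 321 hairpins were higher). The D14 change of 0.75 ± 0.23 (adjusted p = 0.036; 9.97% were higher) was called in 4 of the 8 fits that left out 1 library. For the miR-140 arms edgeR called 0 of 10 tests in ECs, 1 of which, miR-140-3p at D28, had an unadjusted p under 0.05 (0.033); DESeq2 called that one. The mir-140 hairpin was called at D28 (0.69 ± 0.25, adjusted p = 0.018; 33% of hairpins were higher), a call that did not hold without EC D28 replicate 2 (0.19, adjusted p = 0.32).

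In the EC libraries the FB markers were also higher at D3 and D7. Their sum was 2016 to 2845 CPM at D0, 3670 to 5684 CPM at D3 and 6872 to 11141 CPM at D7, and all 3 markers had reads in each EC library. Per 1000 CPM of FB markers, miR-455-5p stood at 3.72 ± 0.50 CPM at D0, 5.57 ± 0.67 CPM at D3 and 3.43 ± 0.69 CPM at D7 in ECs (SD, n = 4), against 2.58 ± 0.22, 2.59 ± 0.39 and 4.00 ± 0.32 CPM in FBs. Already at D0 the EC ratios (3.33 to 4.42) were above all FB ratios (2.41 to 2.85). The same held at D3 (5.01 to 6.54 in ECs against 2.25 to 3.04 in FBs), and at D7 the cell types overlapped. At D14 and D28 the mean marker sum in ECs was 2.57-fold and 2.13-fold of D0. Mean miR-455-5p was 1.69-fold and 1.09-fold, and mean miR-455-3p 4.34-fold and 4.21-fold. The EC ratio was then 2.48 ± 0.80 and 2.14 ± 1.71 CPM. The part of FB carry-over in the EC values was not tested. Among the 12 mesenchymal miRNAs, 3 were higher and 0 lower in ECs at D3, and 6 were higher and 1 lower at D7. That list includes the 3 FB markers, so these counts do not stand apart from the marker sum.

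**Figure D4:**
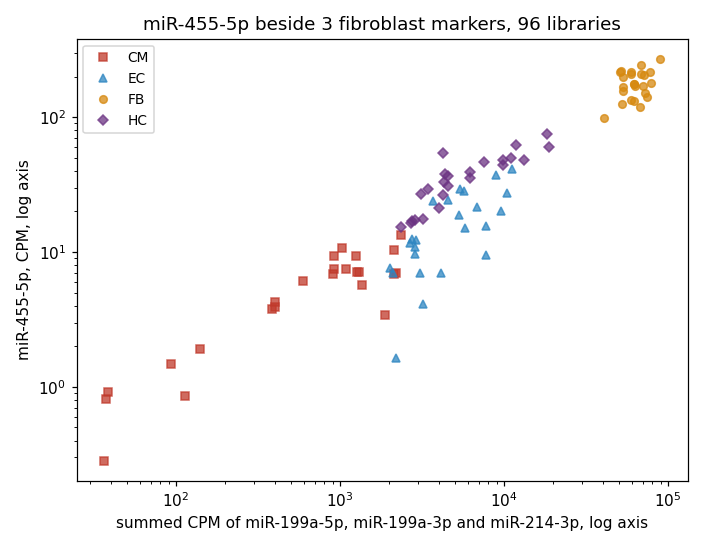
miR-455-5p against the summed level of miR-199a-5p, miR-199a-3p and miR-214-3p in the 96 libraries (CPM, both axes log). FBs sit at 40646 to 88869 CPM of markers, and in the other cell types libraries with more of the markers tended to hold more miR-455-5p.

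HCs showed a fall and a later rise of miR-455. miR-455-5p was 30.9, 26.5, 54.7 and 33 CPM at D0, the third of which was the library with 1 read. It was 17.2, 16.8, 21.3 and 17.6 CPM at D1, below every D0 library. At D3 it was 15.3, 27.1, 16.5 and 29.3 CPM, which overlapped D0, and at D28 it was 60.3, 61.9, 48.1 and 74.8 CPM. The log2 fold changes were -1.18 ± 0.19, -1.01 ± 0.19, -0.12 ± 0.19, 0.29 ± 0.19 and 0.71 ± 0.19 from D1 through D28 in turn (edgeR, adjusted p 1.7e-05, 7.3e-05, 0.62, 0.27 and 0.0074). The background in HCs was high: 54.3%, 59%, 49.5%, 28.1% and 24% of 608 miRNAs were called on the 5 days, early to late. The D3 value was -0.62 without HC D3 replicate 1, and the D28 call did not hold without HC D0 replicate 2 (0.63, adjusted p = 0.051).

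miR-455-3p took the same course in HCs. It was 7.3, 7.06 and 5.59 CPM in D0 replicates 1, 2 and 4, 3.52 to 4.91 CPM at D1, 2.54 to 4.57 CPM at D3 and 13.1 to 21.5 CPM at D28. Apart from replicate 3, the D0 libraries lay above all those of D1 and D3 and below all those of D28. The log2 fold changes were -1.11 ± 0.29, -1.45 ± 0.29 and 1.10 ± 0.28 at D1, D3 and D28 (edgeR, adjusted p 0.0023, 0.00014 and 0.0042), and DESeq2 did not call the D1 change (-0.96, adjusted p = 0.075). The mir-455 hairpin was lower by -1.55 ± 0.23 at D1, -1.69 ± 0.23 at D3 and -0.76 ± 0.23 at D7, and was 0.33 ± 0.23 at D28, which was not called (adjusted p = 0.32). The D7 call did not hold with no filter on low counts (-0.52, adjusted p = 0.075). It also did not hold without HC D0 replicate 4 where low counts were filtered anew (-0.49, adjusted p = 0.11). With the filter kept, it held in 8 of 8 fits that left out 1 library, that replicate among them. On the 3 days on which it was lower, so were 29.3%, 29.3% and 25.1% of 475 hairpins.

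In HCs too the FB markers were lower at D1 and D3 and higher at D28, and the sums of other marker lists also differed from D0. The FB marker sum was 4229 to 4533 CPM at D0, 2743 to 4005 CPM at D1, 2362 to 3431 CPM at D3 and 11880 to 18739 CPM at D28; at least 2 of the 3 markers had reads in each HC library. All 12 mesenchymal miRNAs, which include the FB and mural cell markers, were lower in HCs at D1 and at D3. At D28 6 were higher and 4 lower. Per 1000 CPM of FB markers, miR-455-5p was 3.22 to 12.8 CPM over the HC libraries and 1.77 to 4.28 CPM over the FB libraries. The 12.8 CPM was that of HC D0 replicate 3, on 1 read. The HC median of this ratio was 7.27 CPM at D0 and 3.86 CPM at D28. Relative to D0, the mean sums of the other lists in HCs at D3 were 2.58-fold for HC markers, 0.259-fold for EC markers, 0.221-fold for mural cell markers and 0.447-fold for CM markers. At D28 FB markers stood at 3.59-fold and HC markers at 1.23-fold of D0, with EC markers at 0.306-fold and mural cell markers at 0.317-fold. The part of these cells in the HC values was not tested.

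For miR-140 in HCs the arms differed in call. miR-140-5p was 520.4, 491 and 547 CPM in D0 replicates 1, 2 and 4 and 219 CPM in replicate 3, which rests on 4 reads. All later HC libraries held 765 to 1161 CPM. Its log2 fold change was 0.50 to 0.56 on the 5 days (edgeR, adjusted p 0.012 to 0.046), but with no filter on low counts none of the 5 was called, and leaving out 1 library kept the call in 2 of 8 fits at D14 and 1 of 8 at D28. The HC marker sum stood at 2.56, 2.58, 2.15, 1.39 and 1.23 times its D0 mean on the 5 days, and its part in the rise was not tested. The test over all days was not called (adjusted p = 0.075; 73.5% of miRNAs were). miR-140-3p was 1155 to 1641 CPM at D0 and 1310.2 to 2352 CPM afterwards; edgeR called 0 of 5 days, none had an unadjusted p under 0.05, and DESeq2 called 1, D7. The mir-140 hairpin changed by 0.68 ± 0.15 at D1 and 0.58 ± 0.15 at D3 (edgeR, adjusted p 0.0005 and 0.0018), beside 32% and 34.9% of hairpins that were higher. The D3 change was 0.15 with scaling by library size alone, that is by hairpin counts. Relative to mature counts, the D3 mean was 2.01-fold that of D0, with every D3 library above D0.

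In CMs, the direction of several values depended on how libraries were scaled. Between D0 and later days the median log2 fold change over all 484 miRNAs was 0.20 to 0.44 with TMM factors, used throughout, and 1.42 to 2.99 with scaling by library size alone. In the other cell types these medians were -0.08 to 0.18 and -0.10 to 0.59. The changes of CMs below are therefore relative to that shift. miR-140-5p rose on both scales: it was 23.3, 8.49, 12.4 and 16.1 CPM at D0 and 224, 186, 257 and 292 CPM at D14, with no overlap. Its TMM-scaled log2 fold change was 0.85 ± 0.29, 1.08 ± 0.29, 1.26 ± 0.29, 1.41 ± 0.30 and 1.42 ± 0.30 from D1 to D28 (edgeR, adjusted p 0.035, 0.0037, 0.00068, 0.00027 and 0.00042). The share of miRNAs that was higher was 13.6%, 31.8%, 38.8%, 38% and 29.5% on those days. The D1 call was kept in 3 of the 8 fits that left out 1 library. At D14 the mean FB marker sum in CMs was 33.5-fold that of D0, with HC markers at 5.40-fold, EC markers at 3.47-fold, CM markers at 0.568-fold and mural cell markers at 0.565-fold. Their part in the miR-140-5p values was not tested.

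miR-140-3p went the other way in CMs on the TMM scale and not by library size. It was 82.3, 46.1, 44.3 and 42.4 CPM at D0 and 115, 97.1, 91.4 and 90.4 CPM at D14. In TMM-scaled CPM the same libraries were 244, 159, 141 and 119 at D0 and 60.6, 49.4, 44.7 and 46.1 at D14, so that both scales separated the days, in opposite directions. The TMM-scaled log2 fold change was -1.44 ± 0.34, -1.52 ± 0.34, -1.72 ± 0.35 and -0.96 ± 0.34 on D3, D7, D14 and D28 (edgeR, adjusted p 0.0014, 0.00053, 0.00018 and 0.019), against 0.46, 0.73, 0.88 and 0.73 by library size. Lower on the TMM scale were also 23.3%, 30.2%, 29.1% and 24.8% of the 484 miRNAs. With TMM factors the mir-140 hairpin was -1.0 to -1.47 on the 5 days, where 10.2%, 25.7%, 29.1%, 29.7% and 26% of 354 hairpins were lower. By library size, here the hairpin counts, it was -0.22 to 0.14 and none of the 5 was called. Relative to mature counts, the mean of mir-140 ran from 1.14-fold that of D0 at D1 to 1.98-fold at D14. All D7 and D14 libraries were above D0 on that scale.

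miR-455 was scarce in CMs at D0. miR-455-5p was 0.857, 0.283, 0.81 and 0.918 CPM at D0 and 10.7, 13.4, 7.13 and 10.4 CPM at D7, with no overlap. The TMM-scaled log2 fold change was 1.57 ± 0.30 at D3, 1.58 ± 0.30 at D7 and 1.38 ± 0.30 at D28 (edgeR, adjusted p 0.00017, 0.0001 and 0.00066). On those days 31.8%, 38.8% and 29.5% of miRNAs were higher. The change was not called at D1 (0.70 ± 0.31) or D14 (0.41 ± 0.31). In plain CPM the mean of miR-455-5p was 3.98-fold that of D0 at D1 and 8.02-fold at D14. Every library of both days was above D0 in plain CPM, whereas TMM-scaled CPM at D14 overlapped D0. miR-455-3p had 1 read over the 4 D0 libraries, which together held 53756544 counts, and the 3 libraries at 0 allow up to 0.187 to 0.286 CPM each. Later days held 25, 64, 147, 77 and 59 reads. The ratio of D7 to D0 was 134 by library size (95% exact interval from counting, 23.7 to 5329.9) and 26.7 with TMM factors (4.72 to 1061), and these intervals cover counting error only. The FB markers in the CM libraries rose as well, from 36.5 to 114 CPM at D0 to 1029 to 2344 CPM at D7. They were 1358 to 2188 CPM at D14. From D7 to D14 their mean sum went from 1701 to 1893 CPM. Mean miR-455-5p went from 10.4 to 5.75 CPM, and mean miR-455-3p from 2.50 to 1.99 CPM. The part of the FB markers in the miR-455 values was not tested. The mir-455 hairpin was -0.36, -0.10, -0.16, -0.55 and -0.50 in CMs on the 5 days with TMM factors, where edgeR called none and none had an unadjusted p under 0.05, and by library size it was called higher on D3, D7 and D14 (0.97, 0.93 and 0.84).

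Whether the changes differed between FBs and the other cell types was tested directly, as the FB change against D0 minus the mean change of CMs, ECs and HCs. Of 20 tests of members, 8 were called; over all 712 miRNAs 30.9% were called at D7, 30.5% at D14, 10.1% at D28, 2.81% at D1 and 7.87% at D3. miR-140-3p rose more in FBs by 1.06 ± 0.28 at D7, 1.94 ± 0.28 at D14 and 1.60 ± 0.28 at D28 (edgeR, adjusted p 0.0017, 8.7e-08 and 3e-05). miR-140-5p did so by 1.13 ± 0.35 at D14 and 1.39 ± 0.35 at D28 (adjusted p 0.01 and 0.006). With scaling by library size alone the miR-140-3p difference was not called at D7 (0.39), nor was that of miR-140-5p at D14 (0.22) and D28 (0.64), and without FB D28 replicate 1 the last was 0.98 (adjusted p = 0.073). miR-455-3p went the other way, by -2.67 ± 0.48 at D7, -2.01 ± 0.50 at D14 and -2.0 ± 0.50 at D28, values that include the CM change from a single D0 read and run to -3.98 at D7 without that library, CM D0 replicate 1.

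The balance of the arms differed between the hairpins. Within a library, miR-140-5p exceeded miR-140-3p in 16 of 24 CM libraries, 1 of 24 FB libraries and no EC or HC library. miR-455-5p exceeded miR-455-3p in 24 of 24 CM, 20 of 24 EC, 24 of 24 FB and 23 of 24 HC libraries. The log2 ratio of 5p to 3p (0.5 added to each count) had a median of -0.84 for miR-140 and 1.79 for miR-455 in FBs. Averaged over days, the miR-140 ratio was lower in FBs than in CMs by -1.04 ± 0.15 (SE) and higher than in ECs by 1.16 ± 0.15 (limma, adjusted p 1.4e-08 and 1.3e-09); 68.3% and 56.6% of 145 hairpins were called in these comparisons. The difference from CMs had the other sign at D0, where the means were -1.06 in FBs and -1.87 in CMs. Against HCs it was 0.21 ± 0.15 (adjusted p = 0.26), where 38.6% were called. The miR-455 ratio was 0.69 ± 0.21 higher in FBs than in ECs, and its difference from CMs was -0.93 ± 0.21 with 0.5 and -0.12 with 5 added to each count.

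In CMs the miR-140 arms exchanged rank after infarction. The log2 ratio was -1.87 ± 0.43 (SD, n = 4; -2.43 to -1.40) at D0. It was -0.20 ± 1.26 at D1, then 0.65 ± 0.80 and 0.96 ± 0.63 on D3 and D7, 1.27 ± 0.38 on D14 (0.94 to 1.69) and 0.56 ± 0.72 on D28. No library of D3, D7, D14 or D28 overlapped D0. The change was 1.67 ± 0.52 (SE), 2.52 ± 0.52, 2.83 ± 0.52, 3.14 ± 0.52 and 2.43 ± 0.52 on the 5 days (limma, adjusted p 0.014, 0.00039, 7.7e-05, 2.4e-05 and 0.0005). This ratio is taken within a library and so has the same value under either scaling. The background was also high: 70.7% of 99 hairpins varied over the days in CMs, and 24.2%, 35.4%, 34.3%, 38.4% and 33.3% had a higher ratio on the 5 days. The D1 change fell short without CM D1 replicate 3 (1.23, adjusted p = 0.078) or replicate 4 (1.42, adjusted p = 0.06).

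In FBs the miR-140 ratio was not called on any day by limma (0 of 5, none with an unadjusted p under 0.05), at -1.06 ± 0.28 (SD) at D0 and -0.67 ± 0.27 at D14. The miR-455 ratio was 1.58 ± 0.30 at D0 and 2.55 ± 0.29 at D7, with no overlap (2.27 to 2.87 against 1.23 to 1.91), a change of 0.96 ± 0.21 (SE; adjusted p = 0.0051; 12.2% of 147 hairpins were higher). In ECs at D28 both ratios were lower, by -1.28 ± 0.35 for miR-140 and -2.09 ± 0.62 for miR-455 (adjusted p 0.0071 and 0.009), as were 25% of 104 hairpins. The miR-455 ratios of EC D28 rest on 5, 3, 8 and 61 reads of the 5p arm and 12, 7, 3 and 23 of the 3p arm. The miR-140 ratios of EC D28 ranged from -3.91 to -1.98. In HCs the miR-140 ratio was higher at D1 (0.89 ± 0.27, adjusted p = 0.027; 9.21% of 152 hairpins were higher) and D3 (0.77 ± 0.27, adjusted p = 0.043; 11.8% were higher), and without HC D0 replicate 3 these values were 0.53 and 0.40, the latter not called (adjusted p = 0.094). Leaving out 1 library kept the call in 5 of 8 fits at D1 and 4 of 8 at D3, and the test of this ratio over all days was not called in HCs (adjusted p = 0.13).

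**Figure D5:**
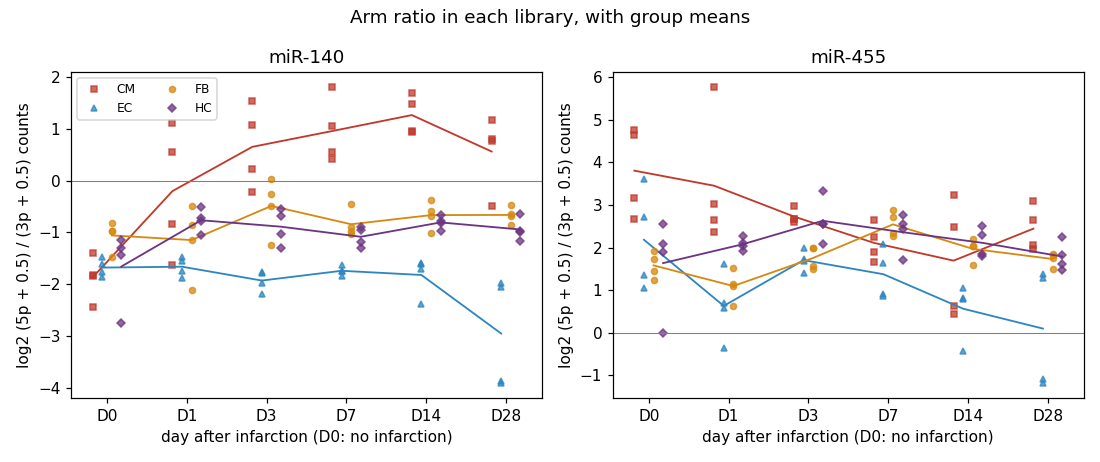
Log2 ratio of 5p to 3p counts (0.5 added) in each library, with lines through group means; above 0 the 5p arm is the more abundant. The miR-140 ratio of CMs crossed 0, from a mean of -1.87 at D0 to 1.27 at D14, and stayed below 0 in every EC and HC library.

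The miRNAs whose pattern was most like each member were named from the correlation of log2 group means over the 24 groups, among 298 miRNAs. For miR-455-5p these were miR-199b-5p (Pearson r = 0.96), miR-199a-5p (0.96) and miR-379-3p (0.92). For miR-455-3p they were miR-199a-3p and miR-199b-3p, which have the same counts (0.98), and miR-214-3p (0.94). miR-140-3p was most like miR-1839-5p (0.87), miR-184-3p (0.84) and miR-146b-5p (0.83), and miR-140-5p most like miR-21a-5p (0.82), miR-222-3p (0.73) and miR-374b-5p (0.67). Groups of 1 cell type share preparation and markers, so these values describe the order of cell types as much as any day.

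Within the 24 FB libraries the picture differed. miR-140-5p was most like miR-140-3p (r = 0.90), miR-214-5p (0.89) and miR-455-5p (0.79) among 287 miRNAs. miR-455-5p was most like miR-199b-5p (0.88) and miR-199a-5p (0.86), and miR-455-3p like miR-221-3p (0.84) and miR-130a-3p (0.83). The miR-455 arms, at 0.90 over the 24 groups, had r = -0.01 over the FB libraries, whereas the miR-140 arms had 0.41 over the groups and 0.90 over the FB libraries. These correlations are across libraries that share days and are given as descriptions.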

How the data were processed

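The authors trimmed reads with Trim Galore, removed those under 18 nt and matched the rest to mature miRNAs, and those left over to hairpins, of miRBase with the nf-core smrnaseq pipeline; the labels also name Bowtie2 and SAMtools. The deposited values are raw read counts per mature miRNA and per hairpin, 192 tables for 96 libraries. In each library 25.6 to 83.0% of reads matched no mature sequence. Counts were tested with edgeR 4.0.16 (quasi-likelihood test, TMM factors, filterByExpr), each day against D0 within the 24 libraries of a cell type, and cell types and differences of changes over all 96 libraries. The log2 ratio of arms was tested with limma 3.58.1 where both arms averaged 10 counts or more. p-values were adjusted by Benjamini-Hochberg over all features, and a call means adjusted p under 0.05. DESeq2 1.42.0 was an alternative, as were scaling by library size, no filter, a replicate block, pseudocounts and left-out libraries (each in turn; EC D28 replicate 3, FB D0 replicate 2 and HC D0 replicate 3, the farthest of the groups from which the study left out an outlier; or replicate 4 of each). Scripts were tested on simulated data. CPM was computed from the deposited counts. The 4 members were taken by name, and the members, marker lists and mesenchymal list were chosen with earlier results of these data known. No 2 libraries held identical counts (0 pairs). Same-numbered libraries of different days in a cell type had correlations of deviations from -0.73 to 0.82 (median 0.0035), so the numbers were not used as pairs. The cell types of a day came from the same animals by the methods, which do not tie the numbers to them. Same-numbered libraries of a day had correlations from -0.67 to 0.53 between cell types (median 0.068; -0.025 for other numbers), so tests between cell types treat as independent libraries that may share animals. R was 4.3.3 and Python 3.11.15.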

Additional observations from a re-analysis of the deposited data

Results flagged for a closer look

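A library was flagged where it stood far from the other 3 of its group by Dixon's test. This was run in each group for the log2 CPM of each arm and for the arm ratios. Of these 144 cases of a group and a measure, 9 were flagged (6.25%). Chance flags about 1 in 20, and the cases share libraries and counts. miR-140-5p was low in CM D28 replicate 1 (5.93 log2 CPM, others 7.31 to 7.48), as was miR-455-5p (1.98, others 2.78 to 2.91). In CMs at D0, miR-140-3p was high in replicate 1 (6.36, others 5.41 to 5.53), miR-455-5p was low in replicate 2 on 4 reads (-1.65, others -0.25 to -0.06), and miR-455-3p had its only read in replicate 1 (-2.81, others -5.0 to -4.71). HC D0 replicate 3, the shallowest library, was low in miR-140-5p on 4 reads (7.94, others 8.94 to 9.09) and high in miR-455-3p on 1 read (6.36, others 2.49 to 2.87). miR-455-3p was high in EC D3 replicate 1 on 60 reads (3.44, others 2.87 to 2.90). The miR-140 arm ratio of EC D14 replicate 4 was low (-2.38, others -1.71 to -1.59).

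The change in FBs differed from the mean change of the other cell types by the edgeR test of that difference in 8 cases. miR-140-3p differed by 1.06 at D7, 1.94 at D14 and 1.60 at D28, and miR-140-5p by 1.13 at D14 and 1.39 at D28. miR-455-3p differed by -2.67 at D7, -2.01 at D14 and -2.0 at D28, with 1 read over the CM D0 libraries.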

How the results depend on the processing

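Both miR-455 arms, and no miR-140 arm, were enriched in FBs under every alternative run. All calls of miR-140 against D0 within FBs at D14 and D28 held under every one. The difference of the miR-140-5p change from the other cell types on those days was not called by library size (0.22 and 0.64). Counts of calls moved as follows. With scaling by library size alone, hairpin tests called 3 in CMs (all of mir-455) in place of 5 (all of mir-140) and 8 in HCs in place of 5, the hairpin test over all days 2 in ECs in place of 1, and the mature test over all days 4 in HCs in place of 2. With no filter, hairpin tests called 2 in CMs and 2 in ECs (4 with the filter), and day tests 5 in HCs in place of 11. Without the farthest replicates of 3 groups, hairpin tests called 2 in ECs. The arm ratio varied over days for 2 hairpins in place of 1 with 5 added to each count, in CMs and in ECs, and in ECs also without replicate 4 of 3 groups. Leaving out 1 library gave 1 to 2 arm ratio calls in CMs, 0 to 2 in ECs, 2 to 4 hairpin calls in ECs and 1 to 2 hairpin calls over all days in ECs. The cause was not tested.

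Values that reversed were all in CMs. By library size, miR-140-3p was 0.46, 0.73, 0.88 and 0.73 at D3, D7, D14 and D28, the mir-140 hairpin 0.14, 0.082, 0.026 and 0.046, and the mir-455 hairpin 0.97, 0.93 and 0.84 at D3, D7 and D14; the choice of scaling also moved the median of all miRNAs there. With 5 added to each count, the miR-455 arm ratio changed by 0.85, 0.99 and 0.55 at D1, D3 and D7, where 3p counts at D0 were 0 or 1. A further 2721 values were called under neither setting, of which 253 changed sign.

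With the replicate block, day tests called 16 in CMs, 6 in ECs, 6 in FBs (7 without it) and 11 in HCs. It ended the calls of miR-140-5p in CMs at D1 (0.82, adjusted p = 0.051), miR-455-3p in FBs at D7 (-0.55, adjusted p = 0.059) and the miR-140 arm ratio in HCs at D3 (adjusted p = 0.051). It made calls of miR-140-3p in CMs at D1 and the miR-455 arm ratio in HCs at D3 (adjusted p = 0.046). Depth limits miR-455-3p in CMs and ECs at D0, both miR-455 arms in ECs at D28 and every member in HC D0 replicate 3.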
